A study of Mus musculus with 19 samples.

Results

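Follicular helper T (Tfh) cells that carried the YFP signal of a BCL6 reporter were compared with Tfh cells that lacked it. The comparison used 8 of the 19 arrays of the study, 4 of YFP-positive and 4 of YFP-negative CXCR5hi PD-1hi cells, chosen by their titles and matched by title number into 4 pairs. All 8 arrays came from Bcl6yfp/+ OT-II cells of C57BL/6J background, CD4+ T cells with 1 transgenic receptor for ovalbumin, which had been moved into congenic hosts. The hosts received NP-OVA in CFA (ovalbumin coupled to a hapten, in an oil adjuvant) under the skin, and cells were sorted by CXCR5, PD-1 and YFP from draining lymph nodes. The day 7 arrays were YFP-positive replicates 1, 2 and 3 with YFP-negative replicates 2 and 3. The day 10 arrays were YFP-positive replicate 4 with YFP-negative replicates 1 and 4. Pairs 2 and 3 therefore compare cells of day 7 and pair 4 cells of day 10, whereas pair 1 sets a day 7 array against a day 10 array. CXCR5lo PD-1lo cells from the same kind of mice at day 7 (3 arrays) and naive splenic CD4+ cells of mice that were not immunized (2 arrays) are given only as reference levels. Whether each array came from its own animals is not said in the labels, so the p-values measure a spread between samples that may in part be technical. By day and by the Y-linked transcripts described below, pair 4 and YFP-negative replicate 1 stand apart from the other arrays. The spread between pairs therefore also holds differences of day and sex-linked transcripts. All results concern cells of 1 T cell receptor in 1 immunization, and the age of the mice is not given in the sources used here.

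BCL6 is a transcriptional repressor that Tfh cells need to form, to enter B cell follicles and to help germinal centre B cells. It is known to oppose genes of other helper lineages and genes that return T cells to the circulation, among them the egress receptor gene S1pr1 and its activator Klf2. CXCR5 brings T cells towards the follicle and PD-1, encoded by Pdcd1, is an inhibitory receptor that Tfh cells carry at high density, so the sort held these 2 proteins high on both sides and divided the cells by the reporter alone.

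Expression is given on a log2 scale for each probe set, and values near 2 are the lowest that this scale gives, so differences measured against such a value depend on that floor. The 8 arrays were alike in their share of probe sets at or above log2 4, which ran from 43.8% to 46.3%. T cell identity genes reached log2 4 on all 8 arrays in 14 of 14 members on the array, and their summed level ran from log2 17.4 to 17.8 on YFP-positive and from 17.6 to 17.8 on YFP-negative arrays. Pair 1 stood apart. YFP-negative replicate 1 had Jchain, the joining chain of secreted antibodies, at log2 12.42, the neutrophil gene S100a9 at 12.14 and the macrophage lysozyme gene Lyz2 at 10.98, where YFP-negative replicates 2, 3 and 4 had at most 3.06, 2.72 and 2.44. The summed level of 19 myeloid and dendritic markers was log2 14.53 on that array against 12.86 to 13.23 on the other YFP-negative and 12.92 to 13.36 on the YFP-positive arrays. For 8 germinal centre B and plasma cell markers it was 13.67 against 12.24 to 12.51 and 12.08 to 12.94. YFP-positive replicate 1 held less of the same RNA, with Jchain at 8.45, Lyz2 at 6.73 and S100a9 at 2.11. Not all markers followed this array. Of the 19 myeloid markers 8 reached log2 4 on some array, and among them Cd68, a lysosomal protein gene of macrophages, was lowest on YFP-negative replicate 1 (4.48). Cd68 was higher on the YFP-positive array of each pair, by 0.44, 1.76, 0.49 and 1.73 (adjusted p = 0.089). Of 19 B cell markers 3 reached log2 4 on some array, H2-Aa on YFP-negative replicate 1 alone (5.81) and Cd74 and Ighm on all 8, while Cd79a, Cd79b and Ms4a1 stayed below it throughout. Cd74, the invariant chain of antigen presentation, read 10.32 on YFP-negative replicate 1 but was higher on the YFP-positive array of pairs 2, 3 and 4 by 1.18, 0.68 and 1.69 (adjusted p = 0.058 in the same-day pairs). Ighm ran from 11.65 to 11.85 over the 8 arrays at its probe set of highest mean. Its weaker probe sets, at log2 4 or more on only 2 or 3 arrays, were higher on YFP-negative replicate 1 than on its partner. Their differences were -4.60 to -2.15 in pair 1 and -1.92 to 0.004 in pair 2. In pairs 3 and 4 they were 0.006 to 0.34 and 0.002 to 0.30. All 5 erythroid and platelet markers on the array stayed under log2 4. Y-linked transcripts such as Eif2s3y were present on both arrays of pair 4 (13.26 and 13.21) and on YFP-negative replicate 1 (13.28) and at the floor on the others, so the arrays of pair 1 also differed in sex-linked transcripts, while those of pairs 2, 3 and 4 matched. Each main result is therefore given for all 4 pairs and for the same-day pairs 2, 3 and 4, and the part of these features in the pair 1 values was not tested.

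Bcl6 itself was measured by 2 probe sets, which gave different sizes. The brighter one read log2 14.08, 14.19, 14.16 and 14.62 on YFP-positive replicates 1 to 4 and 13.79, 13.999, 13.701 and 14.14 on the YFP-negative ones. The reporter-positive array was higher within each pair, by 0.29, 0.20, 0.46 and 0.48, although the groups overlapped. The mean of these differences was 0.36 (SE 0.08, n = 4 pairs, adjusted p = 0.070), short of the threshold of 0.05. All adjusted p-values come from limma's moderated test with the pair as a block and Benjamini-Hochberg adjustment over all genes tested. The second probe set read 12.21, 11.99, 11.92 and 12.58 on the YFP-positive arrays and 11.45, 10.52, 10.67 and 11.07 on the YFP-negative ones, and here the groups did not overlap. Its differences were 0.77, 1.47, 1.25 and 1.503 with a mean of 1.25 (SE 0.15), and its adjusted p was 0.068 over the 17969 probe sets fitted one by one, a fit chosen after the data were seen. Among the other genes of the sort, Cxcr5 ran from 13.77 to 14.05 on YFP-positive and from 13.66 to 13.74 on YFP-negative arrays (difference 0.17, SE 0.08, adjusted p = 0.22). Pdcd1 differed by 0.04 (SE 0.10, adjusted p = 0.79) and the activation marker Cd44 by -0.19 (SE 0.09, adjusted p = 0.20), with overlapping groups in both.

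**Figure D1:**
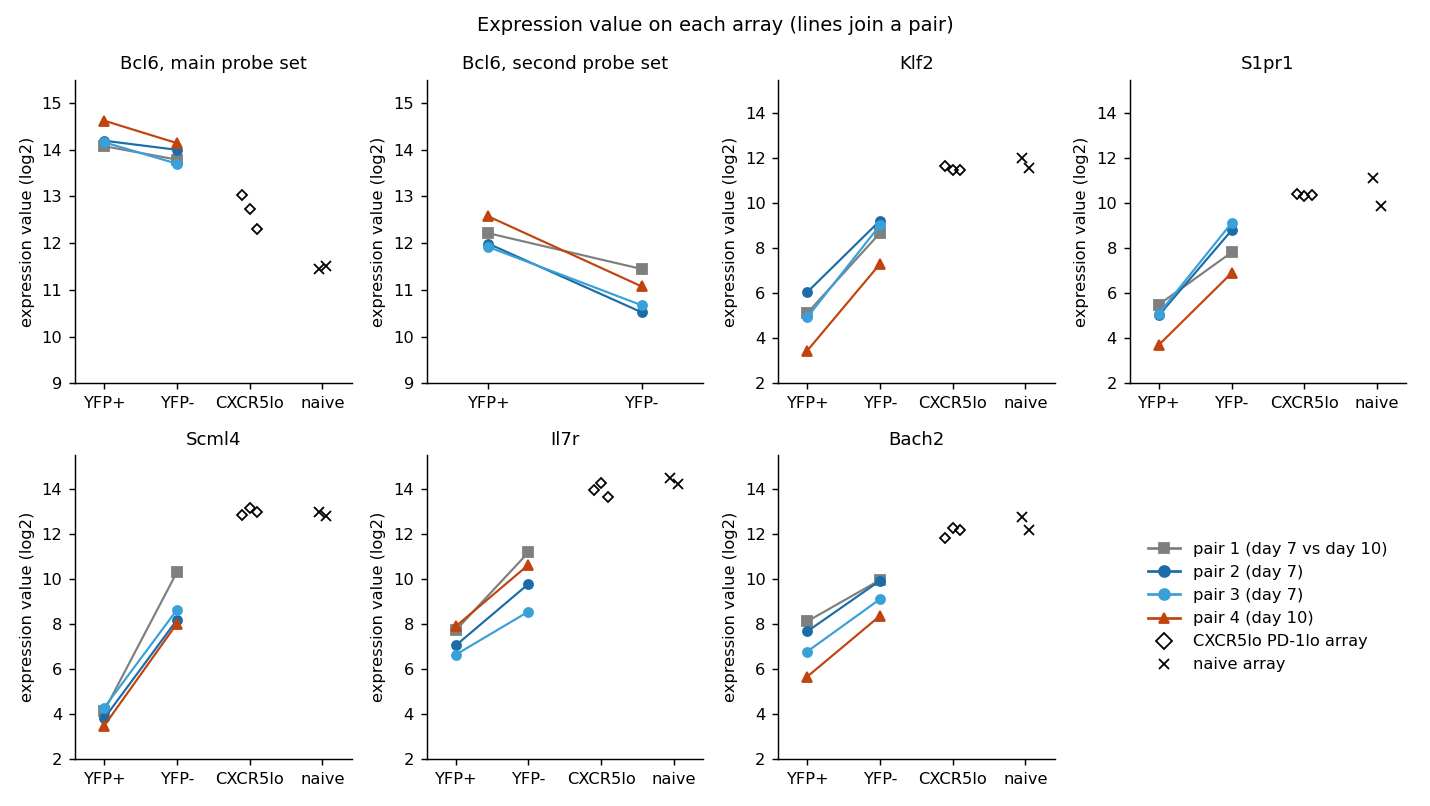
Expression value (log2, y axis) of Bcl6 at both probe sets and of Klf2, S1pr1, Scml4, Il7r and Bach2 on each array, by sorted group (x axis), with a line joining the YFP-positive and YFP-negative array of a pair, diamonds for CXCR5lo PD-1lo arrays and crosses for naive arrays (not drawn at the second Bcl6 probe set). The 4 lines each of Klf2, S1pr1, Scml4, Il7r and Bach2 go up from YFP-positive to YFP-negative, and the lines of Bcl6 go down, over a wider span at the second probe set.

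Of 9601 genes tested, 76 were called at an adjusted p under 0.05 in the paired fit of all 4 pairs (0.792% of genes), 31 higher (0.323%) and 45 lower (0.469%) in YFP-positive cells. At an unadjusted p under 0.05 there were 3053 (31.8%), so many adjusted p-values lay close to the threshold. All 76 went the same way in 4 of 4 pairs, and 46 of them had groups that did not overlap, as did 1.65% of all genes on the higher and 2.36% on the lower side. The count depends on single pairs. Without pair 1, the mixed-day pair, 529 genes were called (5.51%), 358 higher (3.73%) and 171 lower (1.78%), and they include all 76, with 27.9% of genes at an unadjusted p under 0.05. A variance trend with intensity gave 804 higher (8.37%) and 560 lower (5.83%) over 4 pairs. Without pair 2, 3 or 4 no gene was called (0 in each fit, with 2143, 1814 and 2665 at an unadjusted p under 0.05), and without the pair term 4 were. The same-day count moved as well, to 501 with the day 7 pairs alone, 36 without pair 2 and 0 without pair 3 (1642 at an unadjusted p under 0.05). Of the 529 genes, 486 went the same way in pair 1, 323 of the 358 higher and 163 of the 171 lower ones, where 52.7% of all genes were higher in pair 1. Pair 1 was left out of that fit, but its arrays took part in the filter and the choice of probe set. Reporter and day cannot be told apart in it, so these counts are a description and no independent check. The gene-wise differences of any 2 pairs correlated across genes at r = 0.621 to 0.795, a description over 9601 genes that are not independent replicates. Differences of at least 2-fold in each of the 4 pairs, a size rule added after the data were seen, were found for 188 genes higher (1.96%) and 33 lower (0.344%).

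The largest decreases among the called genes were those of Scml4, Klf2 and S1pr1. Scml4, a gene related to Polycomb proteins, read log2 4.14, 3.80, 4.28 and 3.48 on YFP-positive replicates 1 to 4 and 10.31, 8.19, 8.63 and 8.02 on YFP-negative ones. Klf2, a transcription factor that holds T cells quiescent and keeps S1pr1 on, read 5.12, 6.05, 4.93 and 3.45 against 8.68, 9.23, 9.03 and 7.31. S1pr1, the sphingosine phosphate receptor by which lymphocytes leave lymph nodes, read 5.49, 5.02, 5.09 and 3.70 against 7.82, 8.79, 9.12 and 6.90. In each of the 3 genes every YFP-positive array lay below every YFP-negative one, and the day 10 pair had the lowest levels of Klf2 and S1pr1 in both groups. Klf2 fell by 3.67 on the log2 scale (SE 0.17, adjusted p = 0.020), and by 3.71 in the same-day pairs (adjusted p = 0.011). The same-day values were -3.67 (adjusted p = 0.011) for S1pr1, against -3.33 over 4 pairs (adjusted p = 0.036), and -4.43 (adjusted p = 0.0024) for Scml4, against -4.86 (adjusted p = 0.033). These 3 genes had been singled out in earlier work on these data, and for Scml4 the YFP-positive arrays are near the floor. The lowest adjusted p of all belonged to Gm11346, a predicted gene that was picked out only after its values were seen. It read 9.19, 9.08, 8.14 and 7.51 against 12.37, 11.95, 11.20 and 10.54, which gave nearly the same difference in each pair, and it fell by 3.04 (SE 0.08, adjusted p = 0.0024).

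Receptors, signalling genes and a repressor followed. Il7r, the receptor chain for the survival cytokine IL-7, read 7.72, 7.05, 6.64 and 7.90 on YFP-positive and 11.19, 9.78, 8.55 and 10.64 on YFP-negative arrays, with no overlap, and fell by 2.72 (SE 0.25, adjusted p = 0.036). Its second probe set also was lower in each pair, with differences of -3.76 to -1.62 (mean -2.92). Bach2, a repressor that restrains effector differentiation, read 8.12, 7.67, 6.77 and 5.66 against 9.96, 9.93, 9.11 and 8.36 and fell by 2.28 (SE 0.15, adjusted p = 0.033). All 3 of its probe sets were lower in 4 of 4 pairs, with means of -2.28, -2.75 and -2.60. Rasgrp2, which activates the integrin switch Rap1, read 6.65, 6.91, 7.04 and 4.50 against 8.87, 9.54, 9.10 and 7.61 and fell by 2.51 (SE 0.19, adjusted p = 0.033). The cytokine gene Osm fell by 1.81 (SE 0.20, adjusted p = 0.041), from 7.73 to 8.54 on YFP-negative arrays to 6.05 to 6.58 on YFP-positive ones. Ramp3, a partner of peptide hormone receptors, fell by 1.42 (SE 0.12, adjusted p = 0.033) and Hs3st3b1, a heparan sulphate sulfotransferase, by 1.33 (SE 0.13, adjusted p = 0.040). Groups did not overlap in Osm and Ramp3, and overlapped in Hs3st3b1. The immune receptor gene Cd300lb (-2.56, adjusted p = 0.040) and the secretory chaperone gene Scg5 (-1.95, adjusted p = 0.033) were called as well, but YFP-positive arrays read only 2.82 to 4.12 and 2.84 to 4.11, so their sizes are set by the floor. Without the pair term, 4 genes were called. Scml4 (adjusted p = 0.043), Cd300lb (0.043), Osm (0.049) and the higher gene Tmem107 (0.049) passed there, and Klf2 (0.12) and S1pr1 (0.12) did not. Tmem107 had met the filter for testing through its YFP-positive arrays only.

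The cytotoxic protease gene Gzma missed the threshold over 4 pairs and passed over the same-day ones. It read 8.84, 7.80, 7.75 and 9.92 on YFP-positive and 14.16, 10.78, 10.31 and 13.43 on YFP-negative arrays. The groups did not overlap, and both YFP-negative arrays of day 10 were higher than those of day 7. Its difference was -3.59 over 4 pairs (SE 0.48, adjusted p = 0.052) and -3.02 over the same-day pairs (adjusted p = 0.014).

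In most of the named genes called lower the YFP-negative cells lay between the YFP-positive and the CXCR5lo PD-1lo cells. Within title numbers 1, 2 and 3, whose 3 arrays were normalized together, this order held in each number for 8 of these 12 genes: Klf2, S1pr1, Scml4, Il7r, Rasgrp2, Bach2, Scg5 and Osm. Klf2 read 11.47 to 11.68 in CXCR5lo PD-1lo cells, and differences from these were -3.003, -2.26 and -2.44 for the YFP-negative arrays and -6.56, -5.44 and -6.54 for the YFP-positive ones. Il7r read 13.63 to 14.29 there and Rasgrp2 12.52 to 12.90. The remaining 4 genes did not follow this order in each number. Cd300lb was at the floor in CXCR5lo PD-1lo cells (2.21 to 2.43) and read 5.72 to 6.05 in the YFP-negative ones. Ramp3, Hs3st3b1 and Ifi213 differed between YFP-negative and CXCR5lo PD-1lo cells by at most 0.86 in either direction within a number. Of the 13 named genes called higher, 5 had the YFP-negative array between the others in each number: Akap6, Smtn, Susd1, Oip5 and Tpi1. In number 1 the YFP-negative array is of day 10 and the others of day 7, so group and day are mixed there. Pmch, Cit, Pla2g4c, Fads2 and Ccne1 missed the order in number 1 alone, as did Ifi213 and Ramp3 among the lower genes. Cit, for example, differed between YFP-negative and CXCR5lo PD-1lo arrays by -2.22, 1.72 and 2.63 in numbers 1, 2 and 3. These levels are a description with no test, and they share the YFP-negative arrays with the main comparison.

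The 13 named genes called higher in YFP-positive cells include genes of cell division, a glycolytic enzyme and several genes of low value. Ccne1, cyclin E1 of the step into S phase, read 11.07, 10.60, 10.91 and 9.56 on YFP-positive and 9.32, 9.52, 9.08 and 8.35 on YFP-negative arrays. The groups did not overlap, and it rose by 1.47 (SE 0.16, adjusted p = 0.041), with 2.12 at its second probe set. Cit, the citron kinase of cytokinesis, rose by 2.81 (SE 0.33, adjusted p = 0.0498) from 4.86 to 8.33 up to 7.01 to 10.85. Oip5, a centromere protein gene, rose by 1.31 (SE 0.14, adjusted p = 0.040). Both overlapped between groups, with YFP-positive replicate 4, of day 10, below YFP-negative replicate 3. Hspa12a, a distant member of the heat shock protein family, read 8.74, 7.91, 8.62 and 8.69 against 7.03, 6.49, 6.93 and 7.30 and rose by 1.55 (SE 0.09, adjusted p = 0.033). Susd1 (1.44, adjusted p = 0.033) and the smooth muscle cytoskeleton gene Smtn (1.45, adjusted p = 0.040) had groups that did not overlap. Tpi1, the glycolytic triosephosphate isomerase, read 13.33, 12.84, 13.37 and 13.23 against 12.25, 12.15, 12.26 and 12.35 and rose by 0.94 (SE 0.10, adjusted p = 0.040).

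The other 6 named genes called higher had YFP-negative values that reached down towards the floor. Tmem107, a cilium gene, read 5.70 to 7.07 on YFP-positive and 2.29 to 3.59 on YFP-negative arrays (3.52, adjusted p = 0.040). Only its 4 YFP-positive arrays reached log2 4. It thus entered the test through the group in which it is high, and its adjusted p is not independent of that filter. Pmch, the precursor of melanin-concentrating hormone, read 5.42 to 9.23 against 2.96 to 5.83 (2.92, adjusted p = 0.040), and the phospholipase gene Pla2g4c 4.94 to 6.68 against 2.47 to 4.56 (2.69, adjusted p = 0.033). The membrane receptor gene Dcbld2 (2.60, adjusted p = 0.033), the fatty acid desaturase gene Fads2 (2.05, adjusted p = 0.033) and the anchoring protein gene Akap6 (2.02, adjusted p = 0.045) had lowest YFP-negative values of 3.35, 2.94 and 3.13. Of these 6, all but Pmch had other probe sets with smaller mean differences, for example 0.73 and 0.05 for Tmem107 and 1.27 and 0.96 for Fads2, most of them below log2 4 on nearly all arrays.

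Genes of cell division were prominent among the higher genes, although single ones rarely passed over 4 pairs. The cell cycle runs from growth regulators (cyclins and E2F factors) through replication licensing and DNA synthesis to the spindle and the division of the cell, and the lists follow these steps. Of 66 mitosis and spindle genes 64 were tested, and 61 of these were higher in 4 of 4 pairs, beside 24% of all genes. None was called over 4 pairs by limma (at an unadjusted p under 0.05, 61 higher and 1 lower) and 45 were called higher in the same-day pairs, beside 3.73% of all genes. Of 41 replication and DNA synthesis genes 40 were tested, 37 were higher in 4 of 4 pairs, none was called over 4 pairs (38 higher at an unadjusted p under 0.05) and 19 were called higher in the same-day pairs. The same-day calls were 8 of 20 DNA repair genes, 4 of 14 nucleotide synthesis genes and 8 of 25 G1 to S regulators, the last with Ccne1 also called over 4 pairs. Members of the 5 lists together made up 77 of the 188 genes at least 2-fold higher in each pair (41% of those genes and 47.2% of the 163 tested members) and none of the 33 lower ones. The median difference was 2.87 for mitosis, 1.99 for DNA repair, 1.28 for replication, 0.98 for nucleotide synthesis and 0.65 for G1 to S genes, beside 0.001 for all genes. In sorted populations a larger share of dividing cells and more of these RNAs per cell cannot be told apart.

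**Figure D2:**
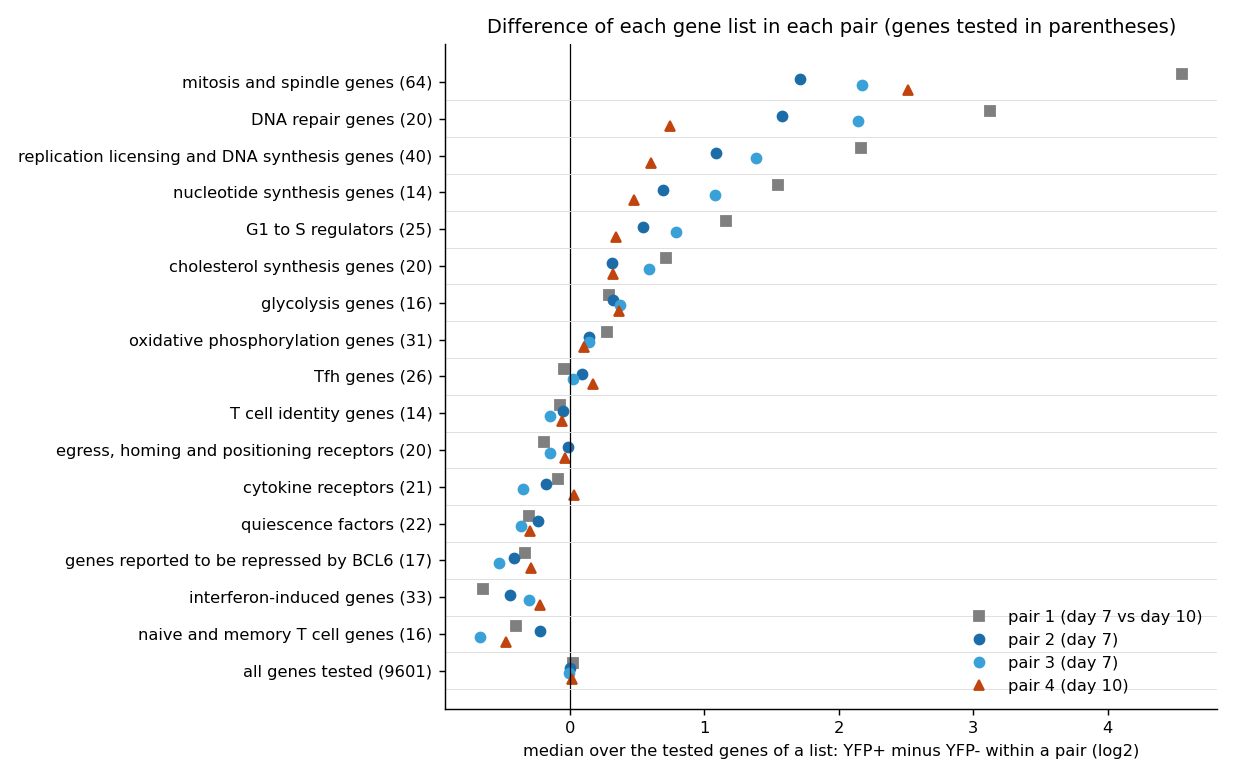
Median over the tested genes of a list (y axis, number of genes in parentheses) of the log2 difference between the YFP-positive and YFP-negative array of a pair (x axis), with 1 point per pair. The 5 cell cycle lists lie to the right of 0 in each pair with pair 1 farthest, quiescence, interferon-induced and naive and memory genes lie to the left, and Tfh genes lie within 0.17 of 0.

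Cdk1, the kinase that starts mitosis, read 12.35, 11.79, 12.42 and 10.06 on YFP-positive replicates 1 to 4 and 8.43, 9.77, 10.33 and 7.00 on YFP-negative ones. Cdc20, which sets off anaphase, read 11.41, 10.55, 11.78 and 7.45 against 7.03, 8.82, 9.55 and 4.73. Mcm5, a subunit of the replicative helicase, read 13.47, 12.74, 12.88 and 10.85 against 10.43, 11.90, 11.42 and 9.84. In each pair the YFP-positive array was higher, but the groups overlapped, with YFP-positive replicate 4, of day 10, below YFP-negative replicate 3 in all 3 genes. The differences over 4 pairs were 2.77 for Cdk1 (SE 0.36, adjusted p = 0.052), 2.76 for Cdc20 (SE 0.45, adjusted p = 0.058) and 1.59 for Mcm5 (SE 0.40, adjusted p = 0.080). The same-day differences were 2.39 (adjusted p = 0.024), 2.22 (adjusted p = 0.020) and 1.10 (adjusted p = 0.035). Other mitosis genes called in the same-day pairs include the proliferation marker Mki67 (1.45, adjusted p = 0.027) and the polo-like kinase Plk1 (2.88, adjusted p = 0.022). Among replication and nucleotide genes Rfc4, a clamp loader subunit (1.41, adjusted p = 0.026), and the thymidylate synthase Tyms (2.45, adjusted p = 0.036) were called there. The exceptions in the mitosis list were Pttg1 (securin), at -0.49, -0.10, -0.33 and -0.28 in pairs 1 to 4, and the condensin subunit Smc4, at -0.16, -0.26, -0.06 and -0.22, and neither passed. Among the G1 to S regulators, cyclin D3 (Ccnd3) was lower in each pair (-0.87, adjusted p = 0.066) and Myc was lower in 3 of 4 (-0.56, adjusted p = 0.205).

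Promoters of these lists are shown because their members moved together. Windows from 250 bases before to 50 after a start were taken from RefSeq (GRCm38.p6) and searched on both strands for the CHR element of mitotic genes (TTTGAA), the CCAAT box (CCAAT), E2F-type letters (TTTGGCGC, TTTCGCGC or TTTCCCGC, which may overlap each other) and later for the interferon element described with its list, all chosen after the data were seen. Of the 64 mitosis genes 54 had windows, and TTTGAA was in 43 of their 60 windows (71.7%), against 12% of the windows of all genes tested and 17.9% of all windows. CCAAT was in 73.3% against 38.4% and 37.4%. Of the 40 replication genes 31 had windows, and the E2F-type letters were in 14 of 37 (37.8%), against 3.74% of the windows of all genes tested and 1.84% of all. Across the lists, E2F-type letters were in 6.67% of the mitosis windows, and TTTGAA and CCAAT were in 18.9% and 56.8% of the replication windows. These shares describe the lists, with members counted whether or not they were called. In genes called over 4 pairs, TTTGAA was in 18.4% of windows of the higher and 22% of the lower ones. CCAAT was in 42.1% and 42% of them, and the E2F-type letters were in 5.26% and 0%. The 200 bases before the start are printed for Cdk1 (chr10:69352913-69353112, minus strand), Cdc20 (chr4:118437344-118437543, minus strand) and Mcm5 (chr8:75109309-75109508, plus strand). Capitals mark CHR and CCAAT letters in Cdk1 and Cdc20, and E2F-type letters and CCAAT in Mcm5 (ATTGG is CCAAT on the other strand). E2F-type letters were not marked in Cdk1 and Cdc20, and the Cdk1 stretch also holds TTTCGCGC, in lower case. The promoters printed are examples that hold the letters. The same stretch held neither CHR nor CCAAT letters in Kif20b. It held neither E2F-type nor CCAAT letters in Ccne1, Rfc4, Tyms and Dut. A match describes letters and shows no binding.
Cdk1: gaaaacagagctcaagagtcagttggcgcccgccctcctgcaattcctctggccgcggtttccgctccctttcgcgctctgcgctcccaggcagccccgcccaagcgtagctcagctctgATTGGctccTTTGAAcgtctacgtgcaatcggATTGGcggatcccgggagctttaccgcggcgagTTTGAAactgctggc
Cdc20: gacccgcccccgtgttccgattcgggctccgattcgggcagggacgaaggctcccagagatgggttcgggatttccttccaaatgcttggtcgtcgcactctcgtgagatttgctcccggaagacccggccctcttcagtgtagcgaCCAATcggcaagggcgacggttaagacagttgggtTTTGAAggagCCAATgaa
Mcm5: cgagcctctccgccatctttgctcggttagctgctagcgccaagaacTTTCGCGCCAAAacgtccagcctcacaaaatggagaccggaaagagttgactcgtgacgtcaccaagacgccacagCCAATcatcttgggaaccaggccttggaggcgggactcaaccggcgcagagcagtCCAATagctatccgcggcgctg

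The 2 days differed in which cell cycle genes were farthest apart. The mean level of the mitosis list was log2 11.56, 10.72 and 11.60 on the day 7 YFP-positive arrays and 8.82 on the day 10 one, and 9.13 and 9.47 on the day 7 YFP-negative arrays and 7.22 and 6.33 on the day 10 ones. At each day the YFP-positive arrays were above the YFP-negative ones, and the day 10 YFP-positive array was below both day 7 YFP-negative arrays. The replication list gave 12.06, 11.72 and 11.98 at day 7 and 9.90 at day 10 in YFP-positive cells, and 10.47 and 10.49 at day 7 and 9.39 and 8.93 at day 10 in YFP-negative cells. Pair 1, which joins a day 7 YFP-positive to a day 10 YFP-negative array, had the largest list medians (4.56 for mitosis and 2.17 for replication), and reporter and day cannot be told apart in it. Within a day, the mitosis median was 1.71 and 2.17 in the day 7 pairs and 2.52 in the day 10 pair, whereas the replication median was 1.09 and 1.38 and then 0.60. Gene by gene, the day 10 difference exceeded both day 7 differences in 37 of 64 mitosis genes (57.8%, against 38.3% of all genes) and fell short of both in 31 of 40 replication genes (77.5%, against 30.6%). DNA repair (15 of 20) and nucleotide synthesis genes (10 of 14) fell short of both as well. The cyclin gene Ccnb2 differed by 1.32 and 1.82 at day 7 and by 5.02 at day 10, while the origin recognition gene Orc1 differed by 4.14 and 4.54 at day 7 and by 0.07 at day 10, where both its arrays were at the floor (2.23 and 2.16). With 1 pair at day 10 the difference between days was not tested, and pair 4 differs from pairs 2 and 3 in sex-linked transcripts and normalization set too.

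**Figure D3:**
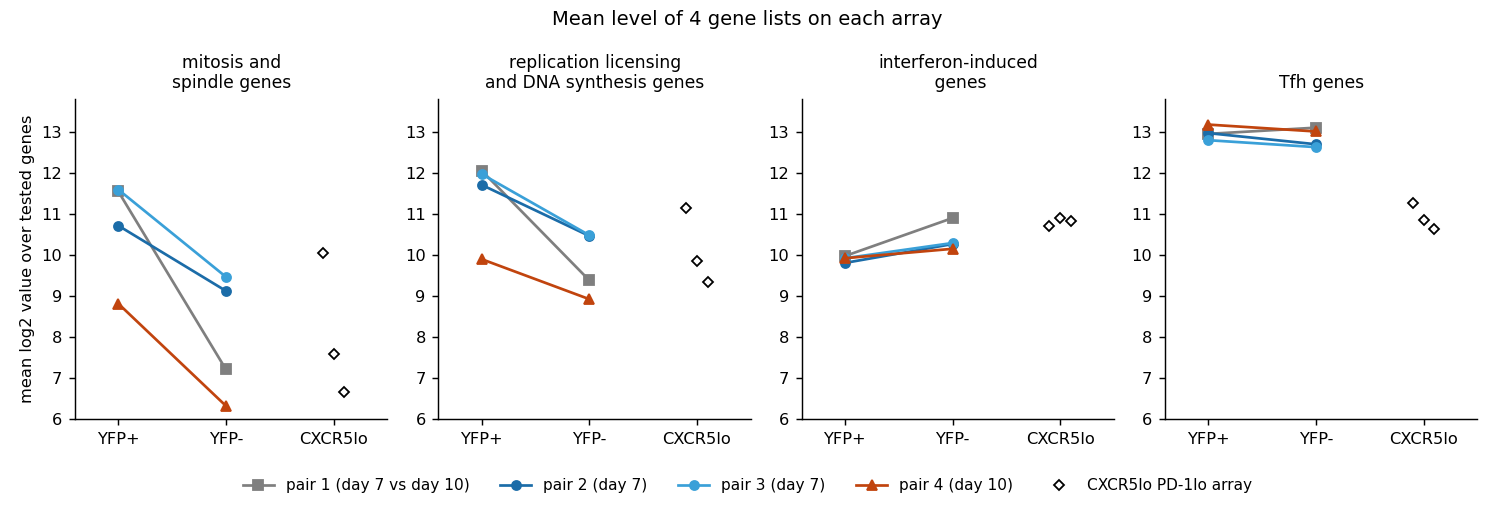
Mean log2 value (y axis) over the tested genes of 4 lists on each array, by sorted group (x axis), with lines joining pairs and diamonds for CXCR5lo PD-1lo arrays. Mitosis and replication levels are lower in the YFP-negative array of each pair and lowest in the pair of day 10, interferon-induced genes are slightly higher there, and Tfh genes lie within 12.6 to 13.2 on all 8 arrays.

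**Figure D4:**
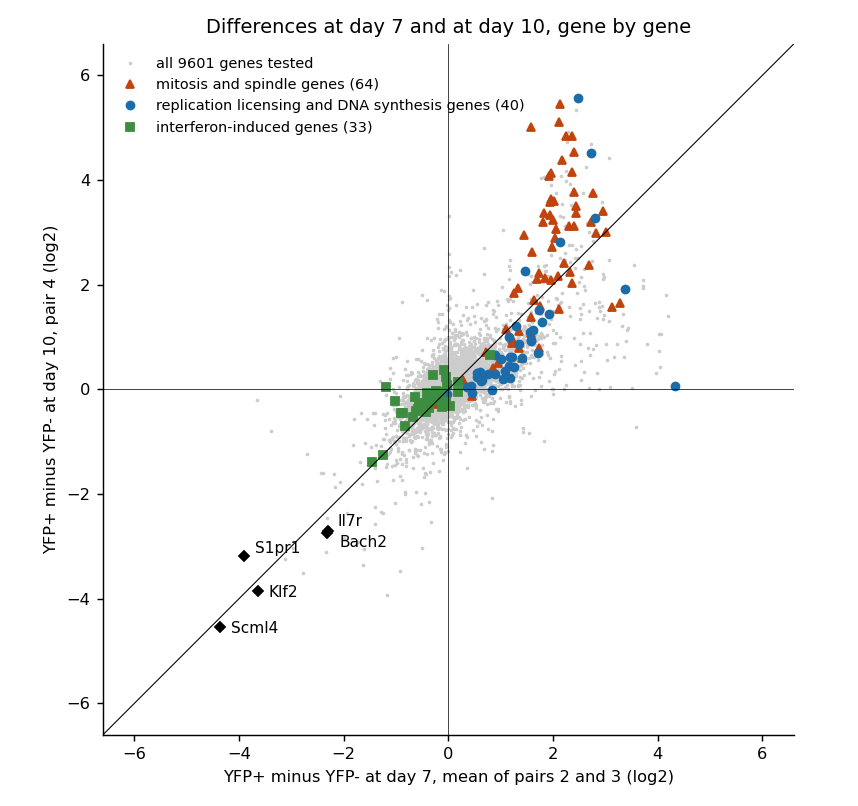
Log2 difference between YFP-positive and YFP-negative cells at day 7 (x axis, mean of pairs 2 and 3) against day 10 (y axis, pair 4) for each of 9601 genes, with mitosis, replication and interferon-induced genes coloured and 5 lower genes named. Most mitosis genes lie above the diagonal of equal differences, most replication genes below it, and Klf2, S1pr1, Scml4, Il7r and Bach2 lie near it.

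Interferon-induced genes were lower in YFP-positive cells in most members. Of 40 genes listed 33 were tested, and 23 of them were lower in 4 of 4 pairs, beside 21.2% of all genes. The medians were -0.65, -0.44, -0.31 and -0.22 in pairs 1 to 4. A single member, Ifi213, was called over 4 pairs (beside 0.469% of all genes called lower), and 4 were called lower in the same-day pairs (beside 1.78%): Ifi213, Ifit3, Ifit1 and Ddx58. Ifi213, a member of the interferon-inducible family of DNA sensors, read 10.78, 10.98, 10.32 and 10.55 on YFP-positive and 12.60, 12.33, 11.89 and 11.95 on YFP-negative arrays. Its groups did not overlap, and it fell by 1.53 (SE 0.10, adjusted p = 0.033), with a mean of -2.11 at its second probe set. Ifit3, which blocks the use of viral RNA, read 8.85, 8.68, 8.43 and 8.62 against 11.57, 9.93, 9.66 and 9.87. The highest value was that of YFP-negative replicate 1, the array with myeloid and plasma cell RNA, but Ifit3 was also lower by 1.25, 1.23 and 1.26 in pairs 2, 3 and 4 (same-day pairs, adjusted p = 0.012). Ddx58, the RNA sensor RIG-I, differed by -0.62 (adjusted p = 0.041) and Ifit1 by -0.79 (adjusted p = 0.030) in the same-day pairs. The interferon regulatory factor gene Irf7 was lower in each pair (-0.91, adjusted p = 0.065) and Ifi204 was higher in each (0.88, adjusted p = 0.065), and neither passed.

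The promoters of Ifit3 (chr19:34583329-34583528, plus strand) and Ifi213 (chr1:173599273-173599472, minus strand) are printed as the 200 bases before the start in RefSeq (GRCm38.p6). Ifi213 was called over 4 pairs and Ifit3 only in the same-day pairs. Both are examples that hold the letters described next, which the same stretch of Irf7 and of Oasl2 did not hold. Capitals mark the interferon-stimulated response element on either strand, searched as 2 copies of GAAA with any 2 bases between them (TTTC on the other strand). Of the 33 interferon-induced genes 24 had windows, and 17 of 30 windows held these letters (56.7%), against 3.09% of the windows of all genes tested and 3.44% of all windows. For the 45 genes called lower, 36 had windows, S1pr1 and Scml4 not among them, and 2 of 50 held them (4%). The letters TTCCTAGAA, the core of a BCL6 site, were in 0 of these 50 windows, where 0.328% of the windows of all genes tested held them, which says only that these letters are not in the windows searched. The looser letters TTCNNNGAA, with any base at N, were in 5 of the 50 windows (10%). They were in 6 of 38 windows of genes called higher (15.8%), against 6.74% of the windows of all genes tested.
Ifit3: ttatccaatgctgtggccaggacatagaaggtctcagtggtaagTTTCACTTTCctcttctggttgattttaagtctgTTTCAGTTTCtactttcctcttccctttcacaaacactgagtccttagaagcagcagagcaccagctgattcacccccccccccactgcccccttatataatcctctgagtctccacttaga
Ifi213: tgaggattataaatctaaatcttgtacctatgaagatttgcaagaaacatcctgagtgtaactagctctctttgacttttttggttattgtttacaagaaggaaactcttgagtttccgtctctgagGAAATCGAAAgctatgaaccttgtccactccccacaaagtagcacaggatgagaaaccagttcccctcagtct

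Quiescence factors had a median of -0.28, with 15 of 22 tested members lower in 4 of 4 pairs, beside 21.2% of all genes. Klf2 and Bach2 were called over 4 pairs (beside 0.469% of all genes called lower), and Tsc22d3 and Pik3ip1 were added in the same-day pairs (beside 1.78%). Tsc22d3, the glucocorticoid-induced leucine zipper gene, read 4.91, 6.24, 4.42 and 6.50 on YFP-positive and 8.75, 8.53, 6.96 and 8.09 on YFP-negative arrays, without overlap (same-day difference -2.15, adjusted p = 0.022). Pik3ip1, a brake on PI3 kinase, differed by -0.92 (adjusted p = 0.043). The factors Foxo1 (-0.13), Foxo3 (-0.27) and Klf13 (-0.23) were not called, and neither were Klf3 (-0.08) and Klf7 (0.30).

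Of 16 tested naive and memory T cell genes (median -0.48) Klf2, S1pr1 and Il7r were called over 4 pairs, and Id3, an inhibitor of E proteins (-0.67, adjusted p = 0.042), and the integrin subunit Itga6 (-0.65, adjusted p = 0.036) also in the same-day pairs. Ccr7, the receptor that holds T cells in the T zone, read 9.38, 8.42, 8.19 and 3.70 on YFP-positive and 9.74, 10.00, 9.85 and 7.06 on YFP-negative arrays. It was lower in each pair and lowest in the day 10 pair, and did not pass (-1.74, adjusted p = 0.095, and -2.20 with 0.060 in the same-day pairs). The 17 tested genes reported to be repressed by BCL6 had a median of -0.34, with 12 lower and 5 higher on average. The chemokine receptor gene Ccr6 in this list was higher in each pair, by 4.09, 0.67, 0.22 and 1.57. Its mean difference of 1.64 did not pass (adjusted p = 0.18). Klf2, S1pr1 and Il7r were again called over 4 pairs. In the same-day pairs Il18r1, a receptor chain of Th1 cells (-1.97, adjusted p = 0.020), and the selectin ligand gene Selplg (-0.70, adjusted p = 0.028) were added. Each of these 2 lists thus had 3 members called lower over 4 pairs, beside 0.469% of all genes, and 5 in the same-day pairs, beside 1.78%. The 3 lists share Klf2, and the last 2 also S1pr1 and Il7r.

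Receptors of egress, homing and position had a median of -0.07 over 20 tested genes, and their movement was not uniform. S1pr1 was the only member called over 4 pairs. In the same-day pairs the integrin subunit Itga4 (-1.05, adjusted p = 0.031) and Selplg were called lower too, and S1pr2, the receptor that confines cells to germinal centres (0.64, adjusted p = 0.028), and Rgs16, a brake on chemokine receptor signals (1.04, adjusted p = 0.041), were called higher, beside 1.78% of all genes lower and 3.73% higher there. S1pr2 read 9.80, 9.86 and 11.18 on YFP-positive replicates 2 to 4 and 9.23, 9.20 and 10.49 on their partners, and in pair 1 it went the other way by 0.17. Cxcr4 (-0.05) and Gpr183 (0.07), receptors of other lymphoid niches, were not called.

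Tfh genes differed little. Of 26 tested members none was called over 4 pairs (at an unadjusted p under 0.05, 5 higher and 3 lower) and 2 were called higher in the same-day pairs, S1pr2 and the transcription factor gene Cebpa (0.58, adjusted p = 0.048), and their median was 0.03. Over all genes the unadjusted shares were 17.5% higher and 14.3% lower, near those of the list, and 3.73% were called higher in the same-day pairs. The T cell help genes Il21 (0.18), Il4 (0.28), Cd40lg (0.00) and Icos (0.01), the adaptor gene Sh2d1a (-0.06) and the factor gene Maf (0.06) were not called. Ascl2, a factor that starts Tfh development, read 7.46, 7.56, 9.05 and 11.83 on YFP-positive and 9.99, 3.64, 4.90 and 10.77 on YFP-negative arrays. It was higher on the YFP-positive array by 3.92, 4.15 and 1.06 in the same-day pairs and lower by 2.52 in pair 1, where the YFP-negative array is of day 10, and it did not pass in either fit (adjusted p = 0.39 and 0.081).

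Metabolic lists were slightly higher in YFP-positive cells. Glycolysis genes were higher on average in 16 of 16 tested members (median 0.34), with Tpi1 called over 4 pairs and Aldoc, Hk2 and Pfkl added in the same-day pairs. Hk2, the hexokinase that starts glycolysis, read 9.21, 8.73, 9.15 and 8.28 on YFP-positive and 4.86, 7.40, 7.29 and 6.23 on YFP-negative arrays, with no overlap (same-day difference 1.74, adjusted p = 0.021). Of 20 cholesterol synthesis genes (median 0.52) none was called over 4 pairs (15 higher at an unadjusted p under 0.05), and Idi1 (1.54, adjusted p = 0.011), Cyp51 (0.97, adjusted p = 0.026) and Insig1 (0.47, adjusted p = 0.048) were called in the same-day pairs. Oxidative phosphorylation genes had a median of 0.17 over 31 tested members, 23 of them higher in 4 of 4 pairs and none called in either fit (9 higher at an unadjusted p under 0.05 over 4 pairs). Over all genes 24% were higher in 4 of 4 pairs, 17.5% were higher at an unadjusted p under 0.05, 0.323% were called higher over 4 pairs and 3.73% in the same-day pairs.

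The other lists held few called genes. Helper lineage transcription factors (26 tested, median -0.06) had Bach2 called over 4 pairs and Id3 added in the same-day pairs, and cytokine receptors (21 tested, median -0.20) had Il7r and then Il18r1. Of 26 cytotoxic and Th1 effector genes on the array 9 were tested (median -0.19), 4 higher and 5 lower on average. None was called over 4 pairs (at an unadjusted p under 0.05, 1 higher and 4 lower). In the same-day pairs Gzma, Il18r1 and the cystatin gene Cst7 (-0.81, adjusted p = 0.047) were called lower. The largest rise in this list was 1.77, that of the chemokine receptor gene Cxcr3, which was called in neither fit. Of 27 genes of T cell receptor and immediate early response (median -0.15) none was called over 4 pairs (6 lower at an unadjusted p under 0.05), while in the same-day pairs the phosphatase gene Dusp4 was called higher (2.29, adjusted p = 0.033) and the early response gene Ier2 lower (-0.73, adjusted p = 0.036). Both went the other way in pair 1, by -0.82 for Dusp4 and 0.93 for Ier2. A same-day call was also made for the orphan receptor gene Gpr83 among 7 tested regulatory T cell genes (-1.02, adjusted p = 0.014) and for the inducible chaperone gene Hspa1b among 19 heat shock and folding genes (-0.53, adjusted p = 0.045). No gene was called in either fit among 17 costimulatory and inhibitory receptors (median 0.01), 12 BCL2 family genes (median 0.22), 14 T cell identity genes (median -0.08) and 3 Th17 and Th2 genes (median -0.19). At an unadjusted p under 0.05 over 4 pairs these lists held 6, 6, 2 and 1 genes, beside 31.8% of all genes. Over all genes 0.469% were called lower over 4 pairs, and in the same-day pairs 3.73% were called higher and 1.78% lower.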

How the data were processed

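RNA of sorted T cells was amplified and hybridised to Affymetrix mouse arrays, per the labels' protocols. The deposited values are log2 values per probe set, made by the authors with GCRMA per the submitters' processing notes, with version and settings not stated in these sources. Value distributions matched within title numbers 1, 2 and 3 and within replicates 4 with 1 naive array, so each pair shares a normalization set. Of 45101 probe sets 34945 carried 1 gene symbol, and each of 18193 genes was given its probe set of highest mean over the 8 arrays. Genes at log2 4 or more on at least 2 of the 8 arrays were tested, 9601 in all.

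Differences were fitted with limma 3.58.1 in R 4.3.3 with the title number as a block (3 residual degrees of freedom, 1.91 prior degrees of freedom), and p-values were adjusted over all genes tested by Benjamini-Hochberg. The procedure was tested on simulated data. The numbers were taken to pair the arrays because deviations from the group means of same-numbered arrays correlated at r = 0.447, 0.766, 0.809 and 0.873. A permutation over 4 pairs cannot give a two-sided p below 0.125. The same fit was made without pair 1, and alternatives left out a pair or the block, used all 19 arrays, or changed the filter, scaling, probe set rule or variance trend.

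Named genes were the sort genes and markers, the 12 highest and 12 lowest called genes with a regular symbol and 1 sign in 4 pairs, up to 3 members of each list and the sex-linked transcripts. List members with a same-day call and a few further members are named to account for counts. Genes and lists were chosen with earlier results of these data known. The number of arrays limits the precision. Figures were drawn with matplotlib 3.10.9.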

Additional observations from a re-analysis of the deposited data

Results flagged for a closer look

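Of 186 groups of 4 arrays examined, 17 held an array far from the other 3 by Dixon's test, which chance alone gives in about 1 of 20 groups. Several came from the day 10 pair. YFP-positive replicate 4 stood apart in Pdcd1 (14.728, highest), Rasgrp2 (4.504, lowest) and the nucleotide enzyme gene Dut (11.459, lowest), and in the mean level of replication (9.904), DNA repair (7.658) and cholesterol synthesis genes (9.377), all lowest there. YFP-negative replicate 4 stood apart in the mitosis genes Oip5 (4.881) and Kif20b (7.405), both lowest, and in the survival gene Bcl2l1 (5.573).

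Arrays of pair 1 stood apart in genes of other cells. YFP-negative replicate 1 was highest in Cd74 (10.32), Jchain (12.418) and the mean of germinal centre B and plasma cell markers (10.58) and of myeloid markers (9.813). YFP-positive replicate 1 was highest in Jchain (8.448) and in the mean of germinal centre B and plasma cell markers (8.525). Both arrays of replicate 2 stood apart in 1 gene each, YFP-positive for Hspa12a (7.911) and YFP-negative for the respiratory chain gene Ndufv1 (12.423).

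In 5 lists the median difference of the day 10 pair had the opposite sign to that of both day 7 pairs. It was 0.002 for helper lineage transcription factors, 0.027 for cytokine receptors, 0.164 for costimulatory and inhibitory receptors, 0.148 for Th17 and Th2 genes and 0.002 for germinal centre B and plasma cell markers at day 10, against negative medians at day 7. These differences between days were not tested, and several are close to 0.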

How the results depend on the processing

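The count of 76 called genes moved with most choices, and the cause was not tested. Without the replicate block it was 4, and in fits of all 19 arrays it was 10 without the block, 69 with the replicate block (15 of the 76 among them) and 1572 with a block for normalization sets (72 of the 76). Leaving out 1 pair gave 0 to 529, with 1814 to 2680 genes at an unadjusted p under 0.05. The count was 199 with the filter on 4 arrays, 191 with a filter at log2 6, 1 with no filter (3392 at an unadjusted p under 0.05), 376 with quantile normalization, 111 with median-centred arrays, 84 with the mean of a gene's probe sets and 1364 with an intensity trend in the variance. Quantile normalization, centring, the trend and the same-day pairs kept all 76. The share of higher calls was 40.8%, but 67.7% in the same-day pairs, 58.9% with the trend and 50.8% with either stricter filter. The same-day count of 529 was 1 without the replicate block, 643 with a stricter filter and 10 without a filter, and 0 to 501 with a pair left out (36 without pair 2). With each probe set fitted alone, an alternative chosen after seeing the data, 2 of 17969 were called, both lower.

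None of the 25 named called genes changed sign under any alternative run. These genes had 1 sign in 4 of 4 pairs, so fits that left out a pair could not turn it. Fits without the block or with the variance trend keep the difference itself. Of the 25, 24 stayed called with the set block, 23 with both stricter filters and 4 without the replicate block. In fits of all 19 arrays 13 stayed called with the replicate block and 6 without a block. None stayed called without pair 2, 3 or 4, where no gene was called. Signs turned for uncalled genes: Pdcd1 (-0.017 without pair 4, up to 0.132 with another pair left out, and -0.002 with centring) and Ighm (-0.726 with the probe set mean). Leaving out 1 pair gave -0.001 to 3.958 for Xist, -3.613 to 0.03 for Eif2s3y and -2.446 to 0.097 for Uty, the reversed value in each without pair 1. Of 405 alternative list medians 6 moved beyond their spread: quiescence (-0.364) and regulatory T cell genes (0.268) with the probe set mean, BCL6-repressed genes (-0.212) without a filter, glycolysis (0.297) and heat shock genes (-0.049) with centring and sex-linked transcripts (2.95) with the filter on 4 arrays. Signals near the floor limit the sizes of the genes said to lie there.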

Other observations

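The 76 called genes also include genes outside the naming rule, picked here after their values were seen. Sgk1, a kinase of salt and PI3 kinase signalling, read log2 12.63, 12.80, 11.97 and 12.07 on YFP-positive replicates 1 to 4 and 13.82, 13.63, 13.29 and 13.00 on YFP-negative ones. It fell by 1.07 (SE 0.11, adjusted p = 0.040, limma), with no overlap of the groups. Socs3, an inhibitor of cytokine receptor signalling, read 12.44, 11.87, 11.54 and 12.07 against 13.35, 12.82, 12.45 and 12.76 and fell by 0.87 (SE 0.08, adjusted p = 0.034). The cytokine receptor gene Il17rb (-0.93, adjusted p = 0.040), the cytokine gene Clcf1 (-0.85, adjusted p = 0.040), the phosphodiesterase gene Pde4d (-0.68, adjusted p = 0.041) and the efflux pump gene Abcb1a (-1.09, adjusted p = 0.041) were called lower too.

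Among higher genes, Slc16a10, an aromatic amino acid transporter, read 9.96, 10.06, 10.32 and 10.60 on YFP-positive arrays and 9.20, 8.95, 9.31 and 9.77 on YFP-negative ones. It rose by 0.93 (SE 0.09, adjusted p = 0.036), and the groups did not overlap. Zeb2, a transcriptional repressor of terminal effector cells, differed more between days and pairs than between groups, with 7.02, 5.06, 4.51 and 8.79 against 5.57, 3.54, 3.32 and 7.72, and rose by 1.31 (SE 0.10, adjusted p = 0.033). The lamin gene Lmnb2 (0.94, adjusted p = 0.033), the cilium gene Tmem237 (1.14, adjusted p = 0.033), the uridine kinase gene Uck2 (0.70, adjusted p = 0.039) and the microcephalin gene Mcph1 (1.26, adjusted p = 0.040) were called higher as well.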
